A study of Mus musculus with 6 samples.

Results

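miR-219a and miR-338 are the microRNAs by which oligodendrocytes, the myelin-forming cells of the central nervous system, are best known. They were described in small RNA libraries from mouse sensorimotor cortex. Their members were the reads of 18 to 26 nt that matched, sense and without mismatch, the 3 annotated hairpins Mir219a-1, Mir219a-2 and Mir338, out of 1174 named hairpins in the annotation. The hairpins gave 5 arms, since both copies of miR-219a share their 5p arm: miR-219a-5p, miR-219a-1-3p, miR-219a-2-3p, miR-338-5p and miR-338-3p. The study compared 2 groups of male C57BL/6J mice of postnatal day 90, operated on under isoflurane. In the SCI group (n = 3) the whole cervical cord was cut through at the C5/6 level, and in the control group (n = 3), whose titles carry the mark wt, the cord was laid bare and left undamaged. Cortex was taken 7 days after surgery in both groups, and samples were collected one by one, per the labels' protocols. Whole tissue was used, so every value is an average over neurons, glia, vessels and blood.

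A hairpin is cut by Drosha and Dicer into a 5p and a 3p arm, and the bases at the start of an arm, its seed, choose the mRNAs it represses. In mouse, miR-219a-5p and miR-338-3p accumulate as oligodendrocyte precursors leave the cell cycle, and they repress Pdgfra, Sox6 and Hes5, genes that hold precursors in the undifferentiated state. Loss of miR-219 in mice delays myelination. miR-338-3p has also been found in axons, where it represses a subunit of cytochrome c oxidase.

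The hairpins are printed because every read below is placed on them. All 3 lie on the minus strand of GRCm38, and capitals mark the most abundant read of each arm as far as the hairpin holds it. Mir219a-2 lies at chr2:29845631-29845727 outside any protein-coding gene, 629 bp from Urm1. Mir219a-1 lies at chr17:34024983-34025092 over an exon of the long noncoding RNA Gm26940, 303 bp from Ring1. Mir338 lies at chr11:120014765-120014862 within an intron of Aatk, a kinase gene on the same strand.
Mir219a-2: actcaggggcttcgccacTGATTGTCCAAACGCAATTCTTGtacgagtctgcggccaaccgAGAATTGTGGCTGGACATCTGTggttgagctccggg
Mir219a-1: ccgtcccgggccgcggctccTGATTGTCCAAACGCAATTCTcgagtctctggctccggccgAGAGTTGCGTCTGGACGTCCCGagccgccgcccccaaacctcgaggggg
Mir338: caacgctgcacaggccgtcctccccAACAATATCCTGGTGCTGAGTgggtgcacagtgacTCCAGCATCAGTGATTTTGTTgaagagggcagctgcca

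The most abundant read of each arm over the 6 libraries is given next, 5′ to 3′ and in DNA letters as deposited, with its seed (bases 2 to 8) in capitals, since the seed is what the start of a read decides.
miR-219a-5p: tGATTGTCcaaacgcaattcttg
miR-219a-1-3p: aGAGTTGCgtctggacgtcccg
miR-219a-2-3p: aGAATTGTggctggacatctgt
miR-338-5p: aACAATATcctggtgctgagt
miR-338-3p: tCCAGCATcagtgattttgtt
Each of the 5 seeds was different, and none was found in another of the 1679 mature mouse miRNAs of the RefSeq table (GRCm38.p6). The most abundant miR-219a-5p read, 23 nt long, ran 2 bases past the RefSeq mature sequence at the 3′ end. The most abundant reads of miR-338-5p and miR-338-3p, both 21 nt long, ended 1 base before it.

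Total counts were 14628518, 23408028 and 19918863 reads in SCI 1, 2 and 3, against 22937179, 10585062 and 24480988 reads in control 1, 2 and 3. Control 1 stood apart from the other libraries over all miRNAs: chi-square values over 408 abundant arms were 925 to 1721 per degree of freedom for the pairs with control 1 and 188 to 513 for all other pairs. Neuronal miRNAs were abundant in every library, with a summed level of the 6 listed ones between 121726 and 133595 CPM in SCI libraries and between 134778 and 150295 CPM in control libraries, which leaves every SCI library just below every control. Most of that sum was miR-128-3p, at 71486 to 92250 CPM. The log2 fold change of SCI over control was negative in 4 of the 6 and positive in 2 (miR-124-3p 0.34 and miR-137-3p 0.16, among others' values not passing). SCI libraries lay below all controls in 3 of the 6, beside 76 of all 690 arms tested. Levels are counts per 1000000 reads counted in miRNA arms (CPM), scaled by TMM, and p-values measure the spread between these 6 samples.

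miR-338-3p was the most abundant member, at rank 35 of the 690 arms tested by mean level, followed by miR-219a-2-3p at rank 101, miR-338-5p at rank 135, miR-219a-5p at rank 158 and miR-219a-1-3p at rank 559. None of the 5 arms differed between SCI and control cortex past an adjusted p of 0.05 in edgeR's quasi-likelihood test, and 0% of all 690 arms did. In the same test 1 of the 5 arms, miR-219a-5p, had an unadjusted p under 0.05, as did 14.1% of all arms. DESeq2 and limma-voom, run as other tests, passed 0 of the 5 arms as well, and 12 and 0 of all 690. In none of the 5 arms did the groups separate without overlap, as they did in 20% of all arms. In bulk tissue fewer oligodendrocytes and less of a miRNA per cell cannot be told apart.

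miR-219a-5p, the arm that represses Pdgfra and Sox6, stood at 276.8, 305.6 and 240.3 CPM in SCI 1, 2 and 3, against 758.3, 278.8 and 444.4 CPM in control 1, 2 and 3. The groups overlapped: control 2 lay among the SCI libraries, and control 1 stood far above every other library. The log2 fold change of SCI over control was -0.85 ± 0.31 (SE; adjusted p = 0.280, edgeR), and it was -0.40 without control 1. Leaving out control 2 gave -1.14 instead. Without a filter on low counts the same fold change passed (-0.86, adjusted p = 0.000162, with 30 of 1421 arms passing), while over all 17 alternatives the adjusted p ranged up to 0.713.

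miR-338-3p stood at 4882, 5325 and 4549 CPM in SCI libraries, against 4875, 5942 and 7283 CPM in control libraries. Control 3 was the highest library and control 1 lay among the SCI libraries, so the groups overlapped. The log2 fold change was -0.29 ± 0.15 (SE; adjusted p = 0.444, edgeR), -0.14 without control 3 and -0.43 without control 1. miR-219a-2-3p, the arm opposite miR-219a-5p on the hairpin Mir219a-2, stood at 910, 785 and 850 CPM in SCI libraries, against 803, 1042 and 1037 CPM in control libraries. Here control 1 was the low control, while it was the high one for miR-219a-5p from the same hairpin. Its log2 fold change was -0.18 ± 0.14 (SE; adjusted p = 0.602, edgeR).

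miR-338-5p stood at 566, 491 and 533 CPM in SCI libraries, against 446, 534 and 560 CPM in control libraries, with a log2 fold change of 0.05 ± 0.14 (SE; adjusted p = 0.900, edgeR) that turned to -0.05 without control 1. miR-219a-1-3p was read rarely, with 21, 39 and 24 reads in SCI libraries, against 32, 16 and 37 reads in control libraries. Its level of 1.85 ± 0.34 CPM in SCI and 1.95 ± 0.04 CPM in control libraries (SD, n = 3 each) gave a log2 fold change of -0.07 ± 0.25, whose sign turned under 4 of the alternatives. The median log2 fold change of the 5 arms was -0.18, and that of all 690 arms was -0.02.

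**Figure D1:**
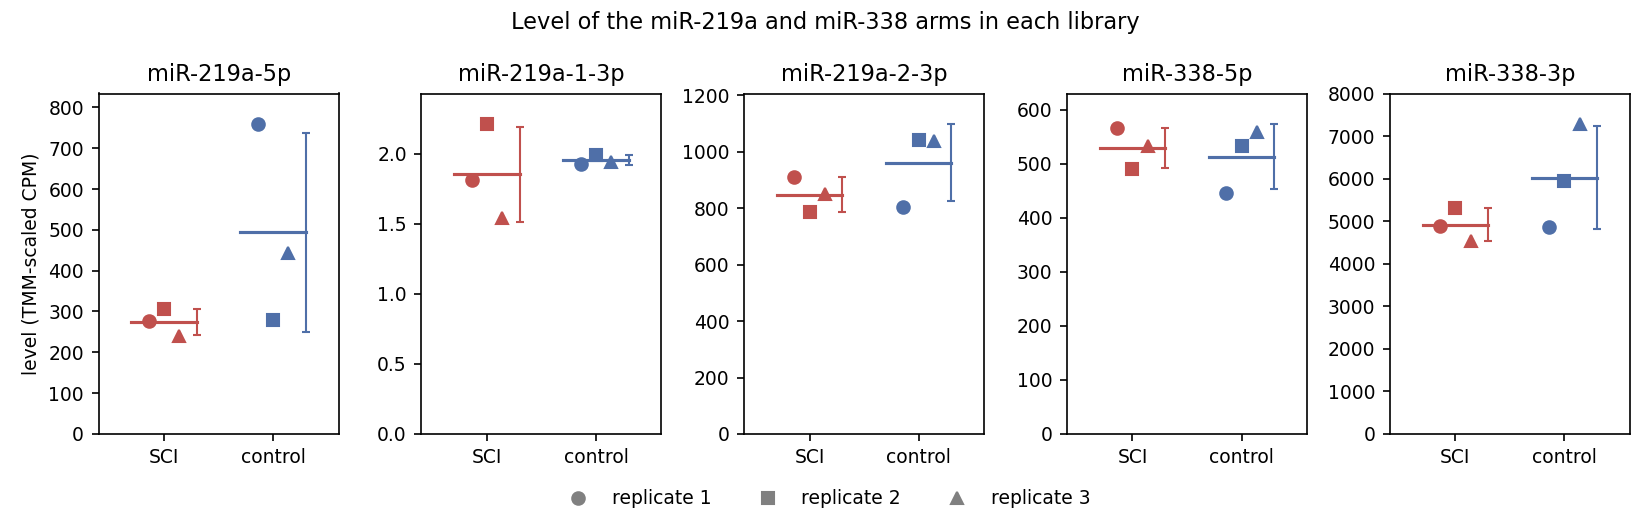
Level of each arm in TMM-scaled CPM (linear axis from 0), with SCI libraries left of control libraries, 1 symbol per replicate number, a line at the group mean and a bar of ± 1 SD (n = 3 each). SCI and control libraries overlap in all 5 arms, and control 1, the blue circle, is the highest library for miR-219a-5p (758.3 CPM) and the lowest control for miR-219a-2-3p (803 CPM).

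The question of which copy made miR-219a-5p can be asked of the reads long enough to reach beyond the first 21 bases, which both copies share. Of these, 2148, 3986 and 2644 reads in SCI libraries and 9966, 1670 and 6474 reads in control libraries matched Mir219a-2 alone. Mir219a-1 alone was matched by 57, 101 and 80 reads in SCI libraries, against 214, 37 and 131 reads in control libraries. Nearly all of the miR-219a-5p that could be assigned therefore matched Mir219a-2, in both groups.

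The share of Mir219a-1 among the reads that tell the copies apart was 2.59% (95% Wilson interval 2.001 to 3.33), 2.47% (2.04 to 2.99) and 2.94% (2.37 to 3.64) in SCI libraries. It was 2.10% (1.84 to 2.40), 2.17% (1.58 to 2.97) and 1.98% (1.67 to 2.35) in control libraries. All 3 SCI shares lay above all 3 control shares, but the intervals, which cover counting error only, overlapped in every pair of an SCI and a control library except SCI 3 with control 3, and no test was run on this share. Reads assigned to the copies moved alike between libraries: those of Mir219a-2 stood at 185, 226 and 169 CPM in SCI libraries, against 599, 208 and 339 CPM in control libraries, and those of Mir219a-1 at 4.91, 5.72 and 5.13 CPM, against 12.9, 4.61 and 6.87 CPM. Up to the most abundant end the copies differ at a single base, so a misread or added base there cannot be told from the other copy. Control 1 was the highest library for reads of both copies.

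The balance of the 2 arms of a hairpin needs no scaling between libraries. In Mir219a-2 the 3p arm outnumbered the 5p arm 3.29, 2.57 and 3.54 times in SCI libraries, against 1.06, 3.74 and 2.33 times in control libraries. Both groups thus held more of the 3p arm, with control 1 near parity. The log2 ratio differed by 0.56 ± 0.46 (SE; adjusted p = 0.623, limma), and by 0.07 without control 1. In Mir338 the 3p arm outnumbered the 5p arm 8.63, 10.85 and 8.54 times in SCI libraries, against 10.94, 11.1 and 13.0 times in control libraries.

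All 3 SCI libraries lay below all controls for the Mir338 ratio, with SCI 2 just below control 1. The log2 ratio differed by -0.33 ± 0.17 (SE; adjusted p = 0.483, limma), which did not pass. In Mir219a-1, whose 5p count includes the reads of both copies, the log2 ratio differed by 0.64 ± 0.37 (adjusted p = 0.518, limma). None of the 3 hairpins passed, nor did any of all 279 hairpins (0%). At an unadjusted p under 0.05 there were 0 of the 3, beside 10.8% of all hairpins, and groups lay apart without overlap in 1 of the 3, beside 19.4% of all.

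The start of a read fixes its seed, so the 5′ ends were examined next. Among the 4 arms abundant enough to test, miR-219a-5p had the most uniform start, with 99.4%, 98.9% and 99.0% of its reads at the most abundant start in SCI libraries, against 99.1%, 99.3% and 99.0% in control libraries. Of these arms miR-338-5p had the least uniform start, with 91.1%, 91.4% and 92.8% in SCI libraries, against 86.8%, 88.5% and 89.1% in control libraries. All 3 SCI libraries of miR-338-5p were thus above all 3 controls. miR-338-3p stood at 97.9%, 98.1% and 98.1% in SCI libraries, against 96.7%, 97.6% and 97.7% in control libraries, again without overlap. miR-219a-2-3p stood between 96.4% and 97.4% in SCI libraries and between 96.5% and 96.6% in control libraries.

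The log2 odds of any other start over the most abundant start differed by -0.58 ± 0.14 for miR-338-5p (SE; adjusted p = 0.0657, limma) and by -0.45 ± 0.17 for miR-338-3p (adjusted p = 0.158, limma). Neither passed, and 0 of the 4 arms abundant enough for this test passed, while 7.71% of all 441 arms did. Unadjusted p-values under 0.05 were found in 2 of the 4 arms and in 26.3% of all arms, and SCI libraries lay below all controls in the same 2 of the 4 arms and in 30.4% of all arms. The median difference over all arms was -0.13, so the direction seen in miR-338 was also that of the libraries at large. With only the 270 arms of at least 1000 reads on average, miR-338-5p passed (adjusted p = 0.0219, limma), as did 57 of them. Over all alternatives its adjusted p lay between 0.0174 and 0.441 (limma). These ends belong to later starts alone and to earlier starts alone, which are other outcomes than the odds of any other start.

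Later and earlier starts were then separated, a choice made after the shares were seen. Reads of miR-338-5p with a later start, which lack at least the first base, fell to 0.639%, 0.519% and 0.469% of the arm in SCI libraries, against 1.89%, 1.68% and 1.24% in control libraries. The lowest control thus had nearly 2 times the share of the highest SCI library, and the counts behind these shares were 42, 45 and 39 reads in SCI, against 140, 72 and 132 reads in control libraries. The log2 odds differed by -1.60 ± 0.22 (SE; adjusted p = 0.0174, limma), at place 13 from the most negative of 435 arms. Later starts passed in 1 of the 4 arms, beside 13.1% of all arms, and the adjusted p of miR-338-5p lay between 0.0242 and 0.0838 when single libraries were left out. The call was lost when SCI 2 (0.0838), SCI 3 (0.0522), control 1 (0.0610) or control 2 (0.0636) was dropped, and the difference then lay between -1.78 and -1.46 over all 6 such fits (limma).

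Later starts of miR-338-3p took 1.99%, 1.90% and 1.79% of the arm in SCI libraries, against 3.29%, 2.39% and 2.24% in control libraries. Every control was above every SCI library, and control 1 was the highest. The log2 odds differed by -0.47 ± 0.18 (SE; adjusted p = 0.148, limma). For miR-219a-2-3p the difference was -0.31 ± 0.22 (adjusted p = 0.410, limma) and for miR-219a-5p 0.08 ± 0.27 (adjusted p = 0.909, limma), both with overlapping groups. SCI lay below all controls in 2 of these 4 arms, beside 35.6% of all 435 arms, and the median difference over all arms was -0.25.

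**Figure D2:**
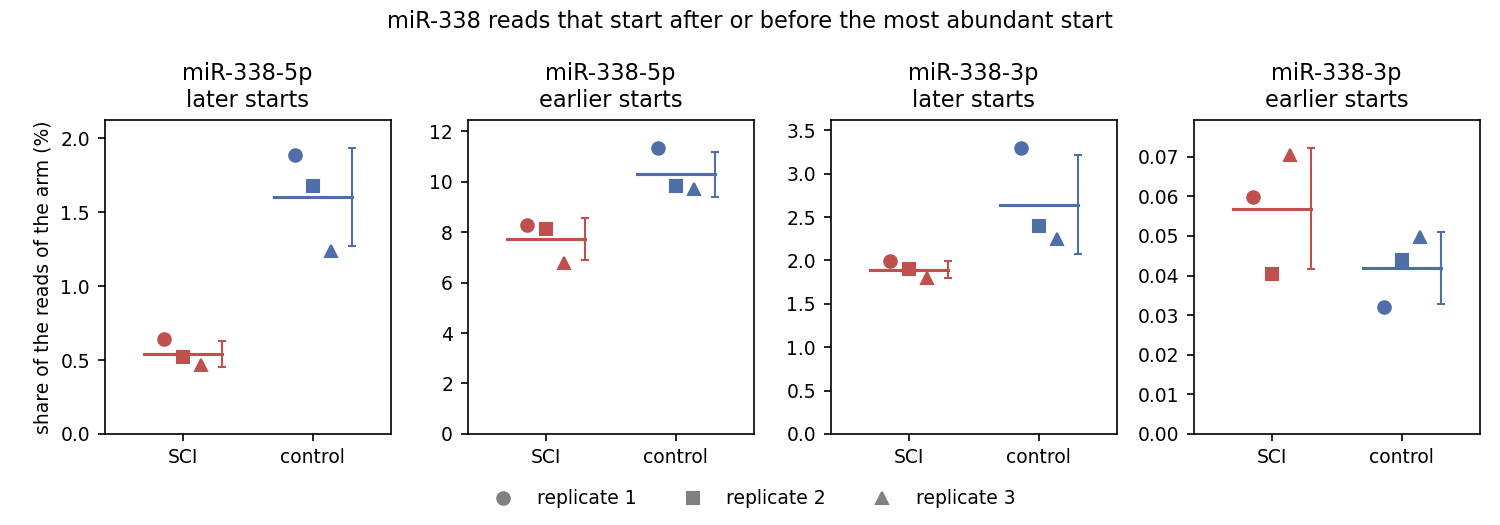
Share of the reads of miR-338-5p and miR-338-3p that start after or before the most abundant start, in percent of the arm (linear axes from 0), SCI left of control, with 1 symbol per replicate number, the group mean and ± 1 SD (n = 3 each). Later starts of miR-338-5p took at most 0.639% in SCI libraries and at least 1.24% in control libraries, and later starts of miR-338-3p lay below all controls in each SCI library, while its earlier starts overlapped.

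Earlier starts of miR-338-5p, most of them 2 bases upstream, took 8.28%, 8.13% and 6.76% of the arm in SCI libraries, against 11.3%, 9.84% and 9.71% in control libraries. The groups did not overlap, as they did not, with SCI below, in 7.62% of all 433 arms, and the log2 odds differed by -0.48 ± 0.17 (SE; adjusted p = 0.441, limma). Among the 4 arms 0 passed for earlier starts, as did 0% of all arms, while 1 of the 4 and 9.01% of all arms had an unadjusted p under 0.05. The median difference over all arms was 0.01 for earlier starts. In miR-219a-2-3p the earlier starts included 350 reads, over the 6 libraries, that began 20 bases upstream, in the loop of Mir219a-2, and fell on the 3p side of the hairpin's midpoint.

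**Figure D3:**
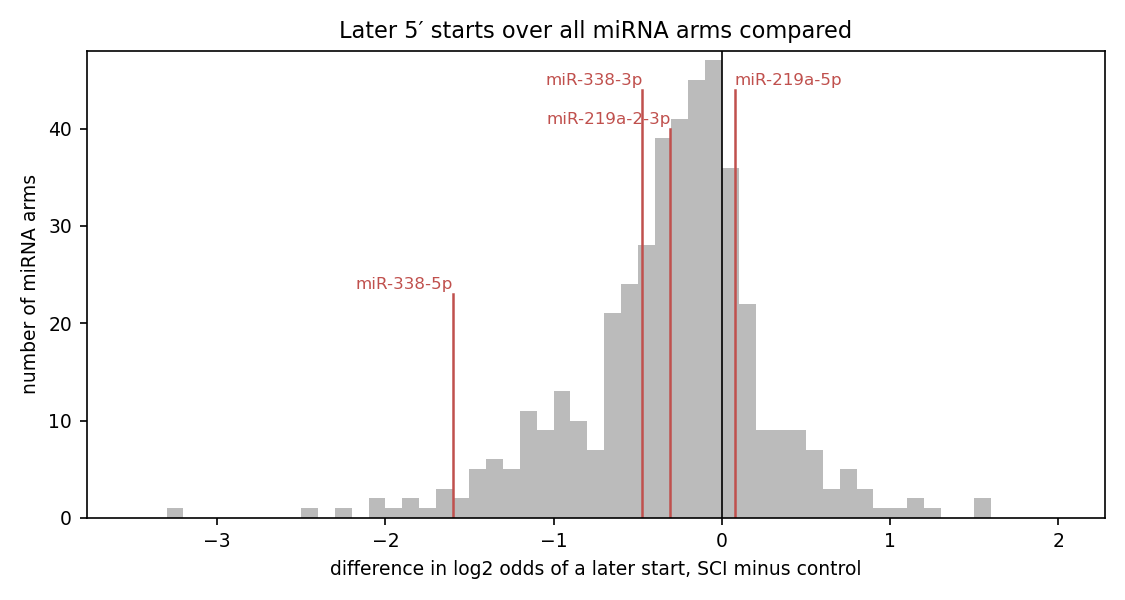
Number of miRNA arms (y axis) by the difference between groups in the log2 odds of a later start over the most abundant start, SCI minus control (x axis), for all 435 arms, with the 4 member arms marked by red lines. Most arms lie left of 0 (74.7% of them), and miR-338-5p, at -1.60, lies farther left than miR-338-3p, miR-219a-2-3p and miR-219a-5p.

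The levels of single sequences were tested next. Of 56 member sequences tested, 5 passed an adjusted p of 0.05, as did 3.52% of all 3950 sequences, and all 5 were lower in SCI cortex and began after the most abundant start of miR-338. They were picked for passing, after their values were seen, and are printed with bases 2 to 8 in capitals to show the seed that each later start would give. The number in each name is the number of bases by which the start is later.
miR-338-5p +1: aCAATATCctggtgctgagt
miR-338-3p +2: cAGCATCAgtgattttgttg
miR-338-3p +3: aGCATCAGtgattttgttg
miR-338-3p +4: gCATCAGTgattttgttg
miR-338-3p +5: cATCAGTGattttgttga
Compared with the most abundant reads above, each has lost the first base or bases. The miR-338-5p read keeps the most abundant 3′ end. The miR-338-3p reads all end past it, by 1 base in +2, +3 and +4 and by 2 bases in +5. Reads of +4 and +5 that stop at the most abundant end fall under the minimum of 18 nt and were not counted. The part of the 3′ end in these calls was not tested. They lie between chr11:120014780-120014800 for miR-338-3p and at chr11:120014817-120014836 for miR-338-5p. Most later starts of miR-338-3p were only 1 base later (9238 of 11121 reads over the 6 libraries). No tested miR-338-3p sequence with that start passed (adjusted p 0.109 to 0.571, edgeR).

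miR-338-5p +1 was counted 27, 29 and 23 times in SCI libraries, against 110, 51 and 107 times in control libraries. That is 2.28, 1.69 and 1.55 CPM in SCI, against 6.73, 6.16 and 5.40 CPM in control libraries, with no overlap, and it had the lowest adjusted p of the 5 (log2 fold change -1.73 ± 0.25, SE; adjusted p = 0.0076, edgeR). That call held in every setting but the one without SCI 3 (adjusted p = 0.0918, edgeR). miR-338-3p +5 was counted 3, 5 and 2 times in SCI libraries, against 90, 10 and 27 times in control libraries, and control 1 alone held most of its reads (-3.56 ± 0.70, adjusted p = 0.0258, and -2.45 without control 1, edgeR). miR-338-3p +2, +3 and +4 were counted between 10 and 35 times in SCI libraries and between 25 and 91 times in control libraries, with log2 fold changes of -1.36, -1.63 and -1.60. The call of miR-338-3p +2 was lost when any 1 library was left out and with total count scaling (adjusted p 0.0527 to 0.252, edgeR), while +3, +4 and +5 were each lost without SCI 1 and without SCI 3, +4 and +5 without SCI 2, and +3 and +4 without control 2.

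Of the 56 member sequences 15 lay lower in every SCI library than in each control and 3 lay higher, beside 13% and 10.5% of all sequences. All 16 tested member sequences with a later start had a negative fold change (median -1.32), 9 lay below all controls and 5 passed. Among all 1080 tested sequences with a later start, 72.9% had a negative fold change (median -0.32), 34% lay below all controls and 11.5% passed on the lower side. Of the 139 sequences that passed over all miRNAs, 124 were later starts that were lower in SCI. The fall of later starts was thus shared by many miRNAs, and whether miR-338 differed from them was not tested. At the most abundant start 0 of 27 member sequences passed, with a median of -0.13, beside 0.49% of all such sequences, and 0 of 13 passed at earlier starts, beside 0.321%. DESeq2 passed 9 of the 56 member sequences and 210 of all 3950. In edgeR with 1 library dropped at a time, 1 member sequence and 53 of all passed without SCI 1, 2 and 49 without SCI 2, and 0 and 0 without SCI 3, where 390 of all had an unadjusted p under 0.05. For the controls, 5 member sequences and 140 of all passed with control 1 dropped, 3 and 45 with control 2 dropped, and 4 and 126 with control 3 dropped.

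None of the abundant reads of miR-338 and miR-219a-2-3p at the most abundant start passed. The most abundant miR-338-3p read stood at 2427, 2893 and 2497 CPM in SCI libraries, against 1445, 3231 and 3485 CPM in control libraries (log2 fold change -0.06 ± 0.27, adjusted p = 0.942, edgeR), and the read 1 base longer stood at 1670, 1871 and 1605 CPM in SCI libraries, against 2663, 1822 and 2635 CPM in control libraries (-0.47 ± 0.17, adjusted p = 0.203, edgeR). Control 1 was the lowest library for the shorter of these and the highest for the longer. The most abundant miR-338-5p read stood at 396, 355 and 404 CPM in SCI libraries, against 324, 358 and 378 CPM in control libraries (0.12 ± 0.16, adjusted p = 0.742, edgeR), and that of miR-219a-2-3p at 681, 621 and 682 CPM in SCI libraries, against 664, 741 and 754 CPM in control libraries (-0.12 ± 0.15, adjusted p = 0.728, edgeR). In both the groups overlapped.

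The share of reads that matched mRNA moved with the same groups in part: it was 0.771%, 1.47% and 1.19% in SCI libraries, against 0.648%, 0.501% and 0.791% in control libraries. SCI 1 lay just below control 3. Its part in the start differences was not tested.

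At the 3′ end, libraries differed in how many miR-219a-5p reads were complete. Reads ending at the most abundant end, base 23, took 36.2%, 50.8% and 42.8% in SCI libraries, against 57.9%, 49.8% and 56.9% in control libraries. SCI 2 and control 2 had nearly the same share, and the other two SCI libraries lay below the other two controls. Reads 2 bases shorter, which match the RefSeq form, took 24.0%, 18.7% and 21.8% in SCI libraries, against 14.4%, 17.6% and 16.2% in control libraries, and here every SCI library lay above every control. This position is 1 of several, was not tested on its own, and has no share over all arms beside it. The log2 odds of other ends differed by 0.68 ± 0.24 (SE; adjusted p = 0.334, limma).

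The same pattern can be read from the levels of single miR-219a-5p sequences. The read of 23 nt stood at 94.2, 154 and 102 CPM in SCI libraries, against 431, 130 and 235 CPM in control libraries (log2 fold change -1.19 ± 0.37, adjusted p = 0.124, edgeR). It fell short of the threshold here but passed in DESeq2 (adjusted p = 0.0255). It also passed in edgeR with the replicate number as a block (-1.06, adjusted p = 0.0331) and without control 2 (-1.51, adjusted p = 0.0477). Its adjusted p ranged from 0.0255 to 0.466 over all alternatives. The read of 21 nt stood at 65.1, 58.6 and 54.6 CPM in SCI libraries, against 111, 47.2 and 69.0 CPM in control libraries (-0.35 ± 0.27, adjusted p = 0.566, edgeR), and turned to 0.05 without control 1. The mean length of miR-219a-5p was 22.1 ± 0.12 nt in SCI and 22.3 ± 0.08 nt in control libraries (SD, n = 3 each).

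miR-338-3p ended mainly at base 21 or base 22. Reads ending at base 22 took 35.5%, 34.8% and 34.1% in SCI libraries, against 55.2%, 32.4% and 38.4% in control libraries, so that the SCI libraries lay between control 2 and control 3 and only control 1 stood apart. The log2 odds of other ends differed by -0.41 ± 0.39 (SE; adjusted p = 0.651, limma), and by 0.07 without control 1. Over the 4 arms tested 0 passed for 3′ ends, as did 0% of all 441 arms, and 1 of the 4 and 11.8% of all arms had an unadjusted p under 0.05. The groups overlapped in all 4 arms and lay apart in 21.1% of all arms. miR-219a-2-3p and miR-338-5p differed by 0.05 ± 0.19 and 0.03 ± 0.12 (SE), both signs turning without control 1.

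**Figure D4:**
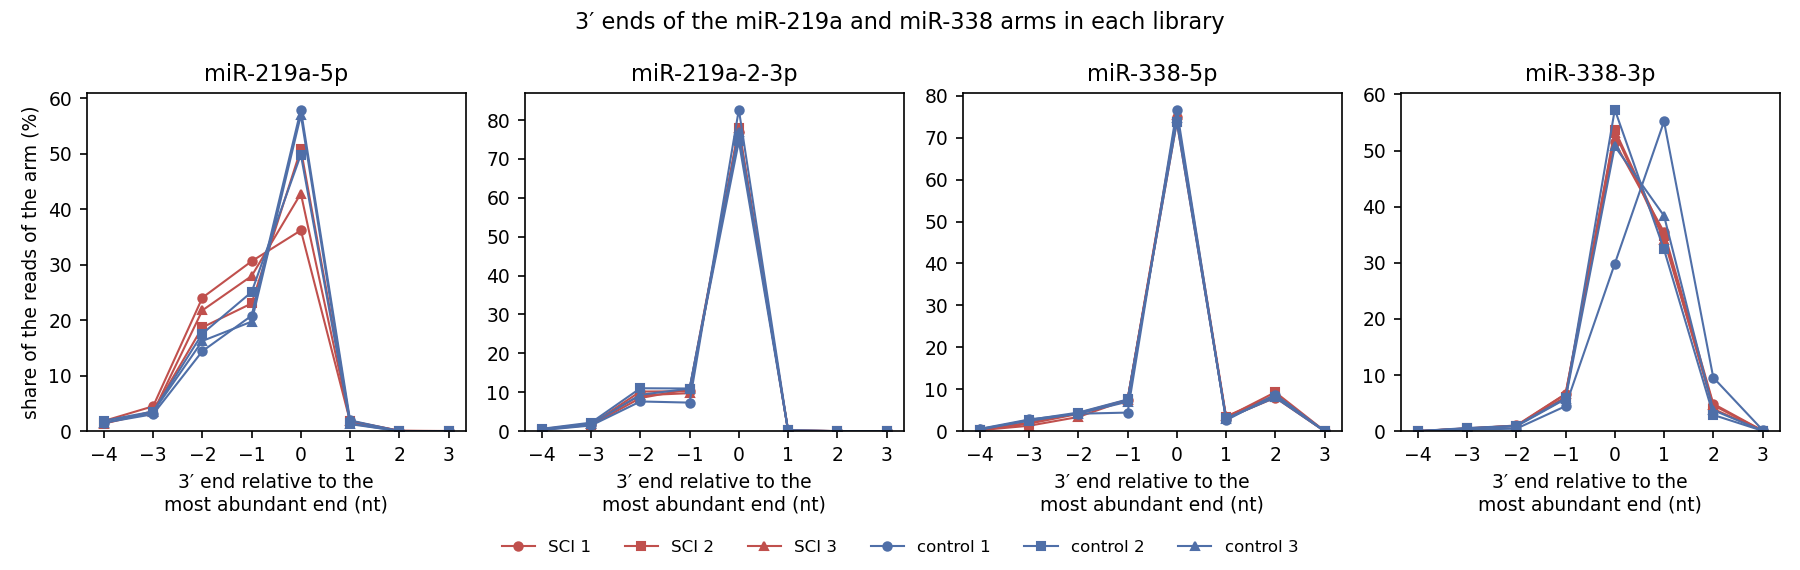
Share of the reads of each arm (y axis, percent) by the position of the 3′ end relative to the most abundant end in nt (x axis, 0 is the most abundant end), 1 line per library with SCI in red and control in blue. For miR-219a-5p the SCI lines are higher at 2 bases before the end (18.7% to 24.0%, against 14.4% to 17.6% in control libraries), a position not tested on its own. For miR-338-3p only control 1 peaks 1 base after the most abundant end (55.2%).

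Bases added at the 3′ end after processing, which do not match the hairpin, are a further mark of mature miRNAs. miR-219a-2-3p carried the most among the 4 arms abundant enough to test, with 15.7%, 14.1% and 15.9% of its reads extended by 1 to 3 bases in SCI libraries, against 14.2%, 13.9% and 13.5% in control libraries. Most of these additions were A alone, at 9.47%, 8.09% and 9.10% in SCI libraries and 7.60%, 7.76% and 7.65% in control libraries, and here every SCI library lay above every control, a difference that was not tested on its own. U alone took 4.88% to 5.21% in SCI and 4.81% to 5.34% in control libraries.

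miR-219a-5p from the same hairpin carried few additions, at 3.60%, 2.55% and 3.32% in SCI libraries, against 2.63%, 2.65% and 2.61% in control libraries. miR-338-5p and miR-338-3p stood at 7.00% ± 0.26 and 3.82% ± 0.48 in SCI libraries, against 6.49% ± 0.88 and 3.45% ± 0.93 in control libraries (SD, n = 3 each). The median over all 441 arms was 12.1%, so that 3 of the 4 arms lay below it. None of the 4 arms passed for the odds of an addition (adjusted p 0.537 to 0.738, limma), as did 0% of all arms. Unadjusted p-values under 0.05 were found in 0 of the 4 and in 8.62% of all arms, and groups lay apart in 0 of the 4 and in 19.7% of all arms.

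Each locus is also annotated with a miRNA on the opposite strand. miR-219b, which faces Mir219a-2, was read 7 times on each arm over all 6 libraries. miR-219c, which faces Mir219a-1, was read 8 times in SCI and 16 times in control libraries on the 5p arm and 2 times in SCI libraries on the 3p arm. miR-3065, which faces Mir338, was read 6 times in each group on the 5p arm and 3 times, all in control libraries, on the 3p arm. None of these 6 arms was abundant enough to be tested, and the loci were read almost only from the minus strand.

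Other miRNAs of the oligodendrocyte lineage gave no call either. Of 7 arms reported to rise or act in differentiation, 0 passed, 3 had an unadjusted p under 0.05 (beside 14.1% of all arms), groups lay apart in 2 (beside 20% of all arms) and the median log2 fold change was -0.10. miR-27a-3p stood at 1186, 1353 and 1165 CPM in SCI libraries, against 1473, 1497 and 1732 CPM in control libraries, with every SCI library below every control (-0.34 ± 0.13, adjusted p = 0.280, edgeR). miR-32-5p, which acts on myelin genes, stood at 82.6, 83.9 and 70.8 CPM in SCI libraries, against 151, 88.0 and 112 CPM in control libraries (-0.57 ± 0.21, adjusted p = 0.280, edgeR), again with every SCI library below the controls. miR-184-3p was the 1 of the 3 with a positive value (0.46 ± 0.19, adjusted p = 0.300, edgeR).

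miR-138-5p, which rises with miR-219 and miR-338 in differentiating oligodendrocytes, stood at 6492 ± 473 CPM in SCI and 6972 ± 1969 CPM in control libraries (SD, n = 3 each). Of 6 arms reported to restrain differentiation or to be highest in precursors, 0 passed, 2 had an unadjusted p under 0.05, groups lay apart in 3, beside the same 14.1% and 20% of all arms, and the median was -0.20. miR-9-5p, abundant in neural progenitors, stood at 65639, 63626 and 61016 CPM in SCI libraries, against 85291, 82486 and 72715 CPM in control libraries (-0.34 ± 0.10, adjusted p = 0.256, edgeR). miR-206-3p, known best from skeletal muscle, was low in all libraries, at 4.59 ± 1.64 CPM in SCI and 2.42 ± 0.35 CPM in control libraries (0.90 ± 0.29, adjusted p = 0.256, edgeR).

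Whole cortex also holds other cells, whose marker miRNAs are given beside these levels. All listed markers were detected in every library and 0 passed in any list. The 5 microglial and leukocyte markers summed to 1564 to 1932 CPM in SCI libraries and 1784 to 2402 CPM in control libraries, all 5 with a negative fold change, and control 1 was the highest. The 2 erythrocyte markers summed to 465 to 1242 CPM in SCI and 584 to 948 CPM in control libraries, and the 2 endothelial markers to 11692 to 15261 CPM in SCI and 12755 to 17942 CPM in control libraries. The 2 mural cell markers summed to 3385 to 3708 CPM in SCI libraries, below the 4558 to 5229 CPM of control libraries. The 3 astrocyte markers, of which miR-32-5p is also counted above, summed to 28066 to 29246 CPM in SCI and 27633 to 33731 CPM in control libraries. Nearly all of that sum was miR-181a-5p, in which the groups overlapped. In the other 2, miR-193a-3p (log2 fold change -1.04, adjusted p = 0.256, edgeR) and miR-32-5p, every SCI library lay below every control, beside 76 of all 690 arms.

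The 5 markers of choroid plexus and epithelium summed to 698 to 1271 CPM in SCI libraries and 915 to 1299 CPM in control libraries, and 3 of them lay below all controls in each SCI library, beside 76 of all 690 arms. One of them, miR-200a-3p, had a course over the 6 libraries close to that of miR-219a-5p, with control 1 highest (24.0, 20.1 and 18.7 CPM in SCI libraries, against 60.9, 26.6 and 28.4 CPM in control libraries). The part of these cells in the member levels was not tested.

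Likeness was measured as the root mean square difference of centred log2 levels over the 6 libraries, among 417 other arms with a mean of at least 10 CPM. Closest to miR-219a-5p were miR-455-5p (0.13), miR-381-3p (0.16), miR-200a-3p (0.20), miR-490-3p (0.21) and miR-32-5p (0.22), while the median arm lay at 0.58. Each of these was highest in control 1. The partner arm miR-219a-2-3p lay at 0.62 from miR-219a-5p, only in place 250 of 417, and miR-338-3p in place 192. Closest to miR-219a-2-3p were miR-181a-5p (0.06), miR-185-3p (0.08), miR-149-5p (0.08), miR-134-3p (0.09) and the joint 5p/3p arm of miR-378a, miR-378b and miR-378c (0.09), with miR-338-5p in place 16 and miR-338-3p in place 57. Closest to miR-338-3p were miR-150-5p (0.08), miR-383-3p (0.09), miR-126a-3p (0.09), miR-425-5p (0.10) and miR-126a-5p (0.10), and the median arm lay at 0.30. By this measure miR-219a-2-3p and miR-338-3p lay closer to each other (0.15) than either lay to miR-219a-5p (0.62 and 0.57). The measure also follows how much an arm varies. An arm with no change at all would lie at 0.163 from miR-219a-2-3p, 0.227 from miR-338-3p and 0.565 from miR-219a-5p. A shared course of these arms was not tested.

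Fragments of myelin mRNAs in the same libraries are a second readout of oligodendrocyte RNA that the choice of the members did not use. Not all of them are particular to myelin genes: 1017 of 2158 reads over the 6 libraries were found in no other protein-coding gene. Reads of 9 myelin genes, found in no hairpin or structural RNA, made up 10.8, 25.9 and 19.2 reads per 1000000 reads of the library (RPM) in SCI libraries, against 14.4, 18.4 and 19.8 RPM in control libraries. SCI libraries were both the lowest and the highest, and the difference of means was 1.11 RPM (two-sided exact permutation test, p = 0.9, where 3 against 3 libraries allow no p below 0.1). Counting only the reads found in no other protein-coding gene, an alternative chosen after seeing the data, gave 5.61, 14.7 and 12.8 RPM in SCI libraries, against 4.45, 4.82 and 7.43 RPM in control libraries, a difference of 5.48 RPM with overlapping groups (exact permutation test, p = 0.2). Set against the reads that matched mRNA, all myelin reads together ran the opposite way: 1400, 1764 and 1622 per 1000000 mRNA reads in SCI libraries, against 2219, 3676 and 2504 per 1000000 in control libraries, with no overlap (exact permutation test, p = 0.1, the smallest possible).

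The 9 neuronal genes gave the same contrast between the 2 denominators, at 61.1 ± 18.7 in SCI and 50.3 ± 14.1 RPM in control libraries, and at 5405 ± 708 in SCI and 7699 ± 742 per 1000000 mRNA reads in control libraries (SD, n = 3 each). Over all 8141 genes with a mean of at least 10 such reads, the log2 ratio of group means had a median of 0.95, and 44% of genes had all SCI libraries above all controls. The 4 myelin genes with that many reads had a median of 0.31. The direction of the myelin fragments therefore depended on whether they were set against all reads or against mRNA reads.

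Among single genes, Mbp, which encodes myelin basic protein, stood at 3.76, 5.13 and 4.57 RPM in SCI libraries, against 1.66, 2.27 and 3.27 RPM in control libraries. All SCI libraries of Mbp lay above all controls, as they did for 44% of all genes. Ermn, which encodes ermin, an oligodendrocyte cytoskeletal protein, ran the other way over all its reads. It stood at 0.820, 0.940 and 0.602 RPM in SCI libraries, against 1.53, 1.89 and 2.41 RPM in control libraries. All SCI libraries lay below all controls in 1.28% of all genes. Most Ermn reads also matched other protein-coding genes. Its reads found in no other numbered 0, 3 and 3 in SCI libraries, against 4, 1 and 6 in control libraries, with overlap. Mobp and the 5 rarer genes stood at a mean of at most 2.24 RPM in either group, and Mal and Cldn11 among them lay higher in every SCI library.

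Aatk, the gene that holds Mir338, gave 0.410, 0.726 and 0.753 RPM in SCI libraries, against 0.349, 0.283 and 0.531 RPM in control libraries. The groups overlapped, as they did for both arms of miR-338.

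**Figure D5:**
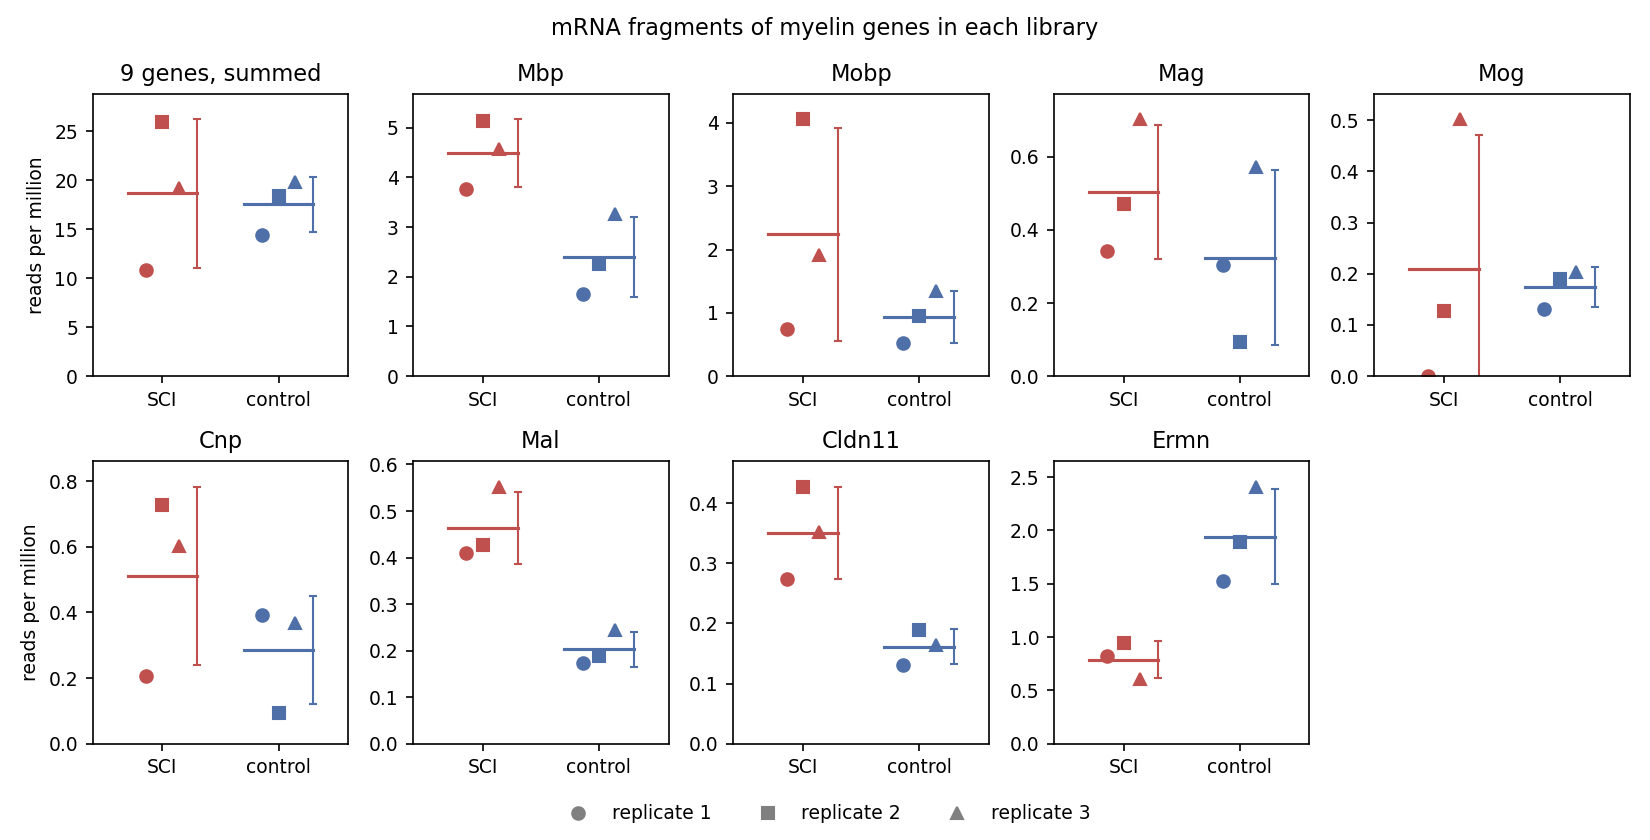
Fragments of 9 myelin mRNAs, summed, and of 8 of them by gene, in RPM (linear axes from 0), SCI left of control, with 1 symbol per replicate number, the group mean and ± 1 SD (n = 3 each). The sum overlaps between groups (10.8 to 25.9 in SCI libraries, against 14.4 to 19.8 in control libraries), Mbp lies higher in every SCI library and Ermn lower. Most Ermn reads also matched other protein-coding genes.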

How the data were processed

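The authors deposited, per the file headers, the raw count of every distinct read in each of 6 libraries (total RNA, mirVana, HD adapters whose ends carry degenerate bases, single-end reads, per the labels' protocols). Trimming and alignment tools are not given in the sources used here, and the submitters' processing notes name the build GRCm38. Deposited reads were 17 to 34 nt long and have no molecular identifiers, and intervals are for counting error alone.

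Reads of 18 to 26 nt were matched here to GENCODE M21 hairpins (GRCm38) and given to an arm by the side of the hairpin's midpoint on which the read's midpoint fell. Arms that shared their most abundant read or at least 50% of the smaller arm's reads were merged. Reads in several arms were left out (0.1002% to 0.153%). Between 72.9% and 78.9% of a library entered the counts. A read with added bases matched an arm after the fewest of 1 to 3 last bases were removed. Fragments of mRNA were reads of a GENCODE M21 protein-coding transcript, sense and without mismatch, that matched no hairpin or structural RNA.

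Counts per arm (690 of 1421 passed filterByExpr, minimum count 10) and per sequence (total of at least 100) were tested with edgeR 4.0.16 (TMM, quasi-likelihood, Benjamini-Hochberg over all features) in R 4.3.3. The SE of an edgeR fold change is its size divided by the square root of F. Log2 odds and ratios (pseudocount 0.5) were tested with limma 3.58.1 over arms with a mean of at least 100 counts, or hairpins with at least 10 in both arms. Alternatives included DESeq2 1.42.0. Other steps used Python 3.11.15 (numpy 2.4.6, scipy 1.17.1, pandas 2.3.3), with matplotlib 3.10.9 for figures. The procedures were tested on simulated data.

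Groups came from the treatment in the labels, which give no batch. No pair of libraries agreed within sampling noise.

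Named were all member arms and their 5 most abundant sequences, the miRNAs on the opposite strand, fixed lineage, cell type and myelin lists, and the 5 closest arms. Members and lists were chosen with earlier results of these data known. The values of 1 myelin gene are not reported here.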

Additional observations from a re-analysis of the deposited data

How the results depend on the processing

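Alternatives that were not planned (later or earlier starts alone, and myelin reads found in no other protein-coding gene) were chosen after seeing the data. Counts of member arms past the threshold stayed at 0 for levels in all settings but the one without a filter on low counts (1, miR-219a-5p), and at 0 for arm ratios, 3′ ends and added bases in all settings. For starts the count moved to 1 (miR-338-5p) with a mean of at least 1000 counts and with later starts alone. The 5 member sequences that passed became 9 in DESeq2 (210 of all sequences) and 9 with the replicate block, and 0 to 5 when single libraries were left out (0 to 140 of all). Same-numbered libraries of the 2 groups deviated from their group means with correlations of 0.20, -0.06 and -0.07 over arms, so the numbers were not taken to pair samples, and not every library correlated best with its own number. With the replicate block 269 sequences passed over all miRNAs, beside 139 without it, and no member arm passed for its level, ratio, start, end or added bases. Total count scaling moved the median log2 fold change of all arms from -0.02 to 0.09.

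Several signs turned. miR-219a-1-3p gave 0.046 with total count scaling, 0.11 with the most abundant sequence alone and 0.016 with reads of 20 to 24 nt, and -0.23 to 0.068 with single libraries left out. With libraries left out miR-338-5p ranged from -0.050 to 0.11, the start odds of miR-219a-5p from -0.12 to 0.27 (-0.13 for earlier starts alone), and the end odds of miR-219a-2-3p from -0.15 to 0.20, of miR-338-5p from -0.035 to 0.080 and of miR-338-3p from -0.75 to 0.074. Earlier starts alone gave 0.41 for miR-338-3p. Sequences of miR-219a-2-3p ending 1, 2 and 3 bases early ranged from -0.29 to 0.088, from -0.31 to 0.079 and from -0.32 to 0.0052. Those of miR-219a-5p ending 1 base early, 2 bases early and 1 base late ranged from -0.71 to 0.00091, from -0.60 to 0.048 and from -1.04 to 0.12. For miR-338-3p the most abundant read ranged from -0.34 to 0.16 (0.033 with the replicate block), and those ending 1 base early, 2 bases early and 2 bases late from -0.16 to 0.22, from -0.22 to 0.35 and from -0.69 to 0.093. The difference of myelin fragments was -1204 per 1000000 mRNA reads, -24.1 with each distinct sequence counted once, and -2.53 to 5.04 with single libraries left out. The causes were not tested.

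With 3 libraries a group, most p-values rest on few samples, and control 1 decides several values. Fragments of rarer myelin genes and reads of miR-219a-1-3p are too few for small differences to be detectable at this depth.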
